A study of Mus musculus with 15 samples.

Results

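The Fc gamma receptor genes were followed for a week from the first intratumoral dose of poly(I:C), a man-made double-stranded RNA sensed by Toll-like receptor 3. The 5 genes, Fcgr1, Fcgr3, Fcgr4, Fcgr2b and Fcer1g, were chosen by name as the mouse receptors for the Fc end of IgG and their shared signalling chain. They are 5 of the 32543 gene entries of the count table, and all 5 were among the 15494 genes that passed the filter on low values.

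RNA was sequenced from 15 subcutaneous tumors, 3 on each of 5 harvest days, grown from the WEHI-164 fibrosarcoma line in female BALB/c mice of wild-type genotype. The day 0 tumors were untreated. Tumors of days 1, 3, 5 and 7 were given poly(I:C) daily, for a planned 6 doses, labelled as 1 µg in 25 µL each. Days were counted from the first dose, so by this plan the day 7 tumors were harvested after the last dose. The supplement names a larger amount per day, which leaves the dose uncertain, and no group given the vehicle alone was labelled. WEHI-164 is a single transplanted line, and the tumors hold host cells beside the tumor cells.

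Fc gamma receptors bind antibody-coated targets and are carried above all by macrophages, monocytes, neutrophils and NK cells. Fcgr1 encodes the high-affinity receptor, Fcgr3 a low-affinity receptor and Fcgr4 a receptor for the IgG2 subclasses. All of them signal through the ITAM of the gamma chain, encoded by Fcer1g, which recruits the kinase Syk. Fcgr2b encodes the inhibitory receptor, whose ITIM recruits the phosphatase encoded by Inpp5d, and the balance of activating to inhibitory receptors is known to set how strongly a myeloid cell responds to IgG. Fcgr1 and Fcgr4 are known as interferon-inducible genes in myeloid cells.

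In the GENCODE M21 annotation of GRCm38, 4 of the genes lie close together on chromosome 1. They are Fcgr2b (ENSMUSG00000026656.15, chr1:170958617-170976547, minus strand), Fcgr4 (ENSMUSG00000059089.4, chr1:171018920-171029761, plus strand), Fcgr3 (ENSMUSG00000059498.13, chr1:171051174-171064935, minus strand) and Fcer1g (ENSMUSG00000058715.11, chr1:171229572-171234365, minus strand). The gaps between neighbours were 42.4, 21.4 and 164.6 kb, in that order. Fcgr1 (ENSMUSG00000015947.10, chr3:96282909-96293969, minus strand) lies apart on chromosome 3. Fcgr2b and Fcgr3 shared 233 stretches of 31 bases, 4.15% of those in the Fcgr2b transcripts and 13.4% of those in the Fcgr3 transcripts. Reads from these stretches could be divided between both genes by the counting, so the level of each is partly uncertain. No other pair of the 5 genes shared such a stretch.

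The 250 bases before the RefSeq start site are shown for Fcgr1, Fcgr4 and Fcer1g, the 3 genes with the largest differences between day 3 and day 0. They are written 5′ to 3′ on the gene's strand, with motif matches in capitals, from GRCm38.p6 at chr3:96293970-96294219 (minus strand), chr1:171018676-171018925 (plus strand) and chr1:171234350-171234599 (minus strand). None of these bases lay in a GENCODE exon for Fcgr1, 6 did for Fcgr4 and 16 for Fcer1g.
Fcgr1: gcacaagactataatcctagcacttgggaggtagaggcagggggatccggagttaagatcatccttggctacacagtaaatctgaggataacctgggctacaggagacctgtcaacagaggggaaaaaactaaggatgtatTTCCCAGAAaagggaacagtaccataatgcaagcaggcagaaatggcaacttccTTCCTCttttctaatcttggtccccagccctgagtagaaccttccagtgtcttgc
Fcgr4: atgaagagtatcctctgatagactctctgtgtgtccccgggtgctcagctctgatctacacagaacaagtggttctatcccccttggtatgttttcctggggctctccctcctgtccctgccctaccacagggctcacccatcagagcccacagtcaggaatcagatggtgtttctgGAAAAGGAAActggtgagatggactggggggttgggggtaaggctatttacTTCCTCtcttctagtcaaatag
Fcer1g: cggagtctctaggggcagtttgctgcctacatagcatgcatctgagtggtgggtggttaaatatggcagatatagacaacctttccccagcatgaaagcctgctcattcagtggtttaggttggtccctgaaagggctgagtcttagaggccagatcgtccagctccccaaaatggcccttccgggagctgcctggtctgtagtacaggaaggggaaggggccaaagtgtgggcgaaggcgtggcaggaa

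Both strands were searched for the STAT-bound GAS motif (TTCNNNGAA), the ISRE core (TTTC, any 2 bases, then TTTC again) and the ETS core bound by PU.1 (GAGGAA, the same as TTCCTC on the other strand). Fcgr1 held a GAS match, TTCCCAGAA, 109 to 101 bases before the start, and TTCCTC 55 to 50 bases before it. Fcgr4 held a match to the ISRE core on the other strand, GAAAAGGAAA, 73 to 64 bases before the start, and TTCCTC 22 to 17 bases before it. Fcgr3 held TTCCTC alone, while the windows of Fcer1g and Fcgr2b held none of these letters. Of the 250 bases, 187 lay in GENCODE exons for Fcgr2b and 27 for Fcgr3. The Fcgr2b window was thus mostly annotated exon, and little sequence before its exons was searched. Of 32851 such windows in the RefSeq table, 7.02% held the GAS motif, 2.98% the ISRE core and 23.3% the ETS core. These matches describe the letters in the window and were not tested as binding sites.

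Total counts were between 23.7 and 31.9 mega-counts per tumor, and each receptor gene had at least 449 counts in every tumor, so counting error was small beside the spread between tumors. Replicate 1 of day 3 stood apart, with a mean correlation of 0.884 with the other tumors over log2 CPM against at least 0.956 for each of the others. Its summed level was 2290 CPM for 6 skeletal muscle markers (3.18 to 147 CPM in the other tumors) and 31479 CPM for 7 fibroblast-like tumor markers (7141 to 14227 CPM in the others). The latter sum was led by the collagen genes Col3a1 (11177 CPM), Col1a2 (7628 CPM) and Col1a1 (5818 CPM). All of these markers but Vim were at their highest of any tumor, while Vim was at its lowest, 2763 CPM. For 5 adipocyte markers the sum was 75.9 CPM (0.334 to 14.5 CPM in the others). CPM are counts scaled to a common library total with TMM factors. Values without this tumor are given beside the day 3 fold changes of the receptor genes, the list medians and part of the listed genes.

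The activating receptors Fcgr1 and Fcgr4 and the gamma chain Fcer1g were highest on day 3 and near the untreated level on day 7. Fcgr1 had 41.5, 64.3 and 58.7 CPM in the untreated tumors, 56.3, 69.6 and 207 CPM at day 1, 197, 171 and 139 CPM on day 3, 101, 138 and 66.8 CPM at day 5 and 54.4, 95.8 and 32.5 CPM on day 7. All 3 day 3 tumors and all 3 day 5 tumors lay above every untreated tumor (as did 19.4% of all genes on day 3 and 6.89% on day 5), whereas a single day 1 tumor, replicate 3, was as high as any day 3 tumor. Fcgr4 had 41.3, 84.3 and 59.0 CPM in the untreated tumors, 42.2, 80.9 and 169 CPM at day 1, 336, 152 and 178 CPM on day 3, 142, 166 and 76.3 CPM at day 5 and 44.8, 117 and 18.8 CPM on day 7. The day 3 tumors again lay above every untreated tumor, and the day 7 tumors spread from below the lowest to above the highest untreated value.

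Fcer1g, the chain the activating receptors share, had its day means in the same order as Fcgr4. It had 80.7, 115 and 102 CPM in the untreated tumors, 79.0, 92.3 and 229 CPM at day 1, 413, 220 and 189 CPM on day 3, 179, 183 and 103 CPM at day 5 and 92.8, 132 and 56.5 CPM on day 7. The day 3 tumors lay above all untreated, day 5 and day 7 tumors. For Fcgr1 and Fcer1g the day 5 tumors lay below every day 3 tumor, beside 4.83% of all genes. Fcgr3 had 133, 121 and 128 CPM in the untreated tumors, 77.7, 123 and 169 CPM at day 1, 326, 156 and 179 CPM on day 3, 215, 165 and 108 CPM at day 5 and 94.2, 149 and 70.0 CPM on day 7. Its day 3 tumors lay above every untreated tumor, with replicate 2 nearest to them.

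The inhibitory receptor Fcgr2b had 390, 287 and 309 CPM in the untreated tumors, 220, 283 and 318 CPM at day 1, 612, 299 and 318 CPM on day 3, 419, 277 and 235 CPM at day 5 and 219, 315 and 156 CPM on day 7. The groups overlapped in every comparison, and day 3 replicate 1 was the sole tumor above 419 CPM. Of 20 neighbouring days in the order of mean levels, 4 for each gene, the tumors overlapped in 19, the exception being Fcer1g on day 3 (274 ± 121 CPM) and day 5 (155 ± 45.1 CPM; SD, n = 3).

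**Figure D1:**
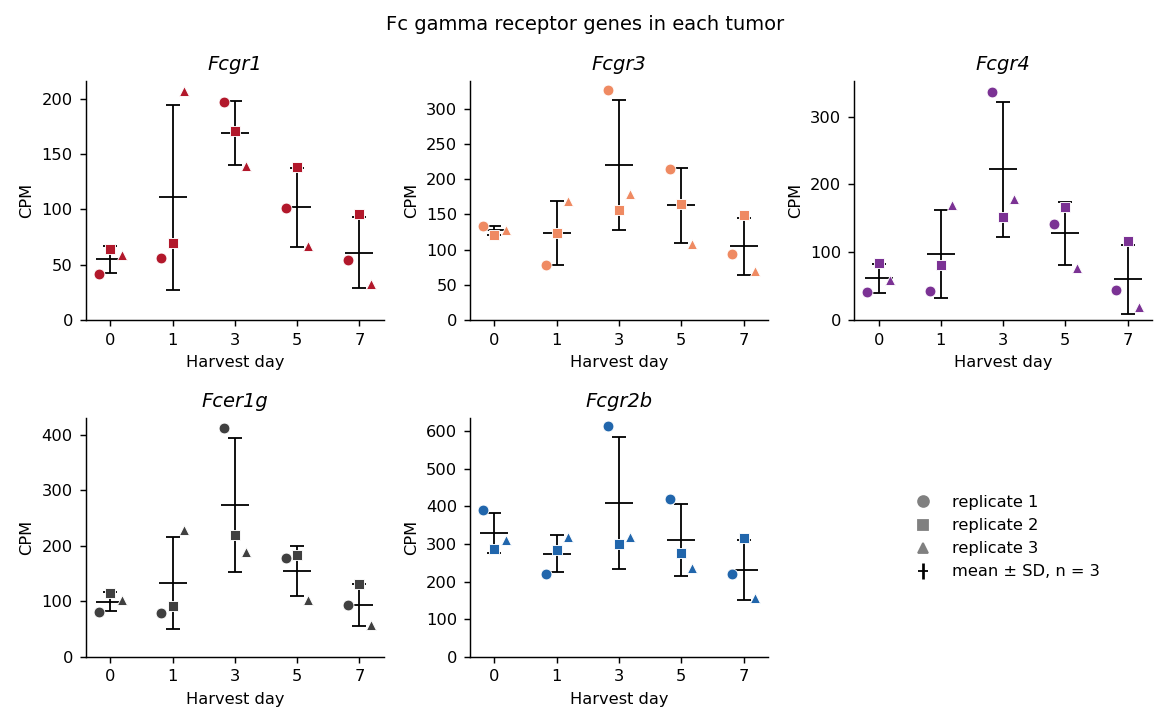
CPM of each receptor gene (y axis, linear from 0) against harvest day, with 1 symbol per tumor shaped by replicate and bars for the mean ± SD of 3 tumors. The day 3 tumors lie above all untreated tumors for Fcgr1, Fcgr3, Fcgr4 and Fcer1g, while those of Fcgr2b overlap them.

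The comparison of day 3 with day 0 asked which receptor genes differed at the middle of the course. The log2 fold change was 1.62 ± 0.49 for Fcgr1, 1.85 ± 0.64 for Fcgr4, 1.47 ± 0.44 for Fcer1g, 0.79 ± 0.36 for Fcgr3 and 0.32 ± 0.32 for Fcgr2b (SE, edgeR fit of all 15 tumors). None of the 5 passed the threshold, with adjusted p-values of 0.115, 0.117, 0.115, 0.166 and 0.469 by the edgeR quasi-likelihood test. No gene of the 15494 passed it in this comparison (0%). At an unadjusted p under 0.05, 4 of the 5 receptor genes were higher, all but Fcgr2b, beside 18.3% of all genes. The same 4 had day 3 tumors above every untreated tumor, beside 19.4% of all genes. DESeq2, run as an alternative, called Fcgr1 (adjusted p = 0.0182), Fcer1g (adjusted p = 0.0191) and Fcgr4 (adjusted p = 0.0278) higher, beside 9.43% of the genes it adjusted. Without day 3 replicate 1, the log2 fold changes by edgeR were 1.5 for Fcgr1, 1.42 for Fcgr4, 1.05 for Fcer1g, 0.39 for Fcgr3 and -0.086 for Fcgr2b, so the order of Fcgr1 and Fcgr4 turned and Fcgr2b changed sign. Fcgr1 and Fcer1g then had an unadjusted p under 0.05, 2 of the 5, beside 6.53% of all genes.

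On day 1 the largest log2 fold change was that of Fcgr1, at 1.02 ± 0.48 (SE; edgeR adjusted p = 1), and it was 0.20 without day 1 replicate 3. On day 5 it was 1.06 ± 0.63 for Fcgr4, 0.90 ± 0.48 for Fcgr1 and 0.64 ± 0.44 for Fcer1g (SE; edgeR adjusted p = 0.859 for each). On day 7 the receptor genes lay between -0.51 (Fcgr2b) and 0.15 (Fcgr1) on the log2 scale relative to day 0 (edgeR adjusted p = 1 for each). No receptor gene was called by edgeR or DESeq2 on day 1, 5 or 7, and none had an unadjusted edgeR p under 0.05. Over all genes, edgeR called 0% on each of these days, an unadjusted p was under 0.05 in 3.16%, 4.8% and 2.07%, and DESeq2 called 0.259%, 0.0648% and 0.0324%. The comparisons of the 4 treated days share the untreated tumors, so they are not independent.

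On day 7 all 5 receptor genes had lower mean levels than on day 3. The log2 fold change of day 7 against day 3 was -1.88 ± 0.64 for Fcgr4, -1.55 ± 0.44 for Fcer1g, -1.47 ± 0.49 for Fcgr1, -1.08 ± 0.36 for Fcgr3 and -0.83 ± 0.32 for Fcgr2b (SE). Their edgeR adjusted p-values were 0.0866, 0.0832, 0.0848, 0.0865 and 0.103, and no gene of the 15494 was called (0%). All 5 had an unadjusted p under 0.05, beside 22.6% of all genes in the lower direction. In 4 of them, all but Fcgr2b, the day 7 tumors lay below every day 3 tumor, beside 18.4% of all genes. DESeq2 called these 4 lower (adjusted p = 0.0121 for Fcer1g, 0.0189 for Fcgr4, 0.0203 for Fcgr1 and 0.0274 for Fcgr3), beside 15% of genes. Without day 3 replicate 3, edgeR called Fcer1g (adjusted p = 0.0494), beside 2091 of all 15494 genes, 1560 of them lower. Without day 3 replicate 1 the log2 fold changes were -1.44 for Fcgr4, -1.34 for Fcgr1, -1.12 for Fcer1g, -0.67 for Fcgr3 and -0.42 for Fcgr2b, and the unadjusted edgeR p was under 0.05 for Fcgr1 and Fcer1g alone. Of all 15494 genes, 1309 were then lower at an unadjusted edgeR p under 0.05. In the joint test over treated days, edgeR called none (lowest adjusted p = 0.292; 0% of genes), with an unadjusted p under 0.05 for Fcer1g, Fcgr1 and Fcgr4 beside 16.2% of genes, and Fcer1g (adjusted p = 0.029) and Fcgr1 (adjusted p = 0.0448) by DESeq2, beside 7.84%.

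**Figure D2:**
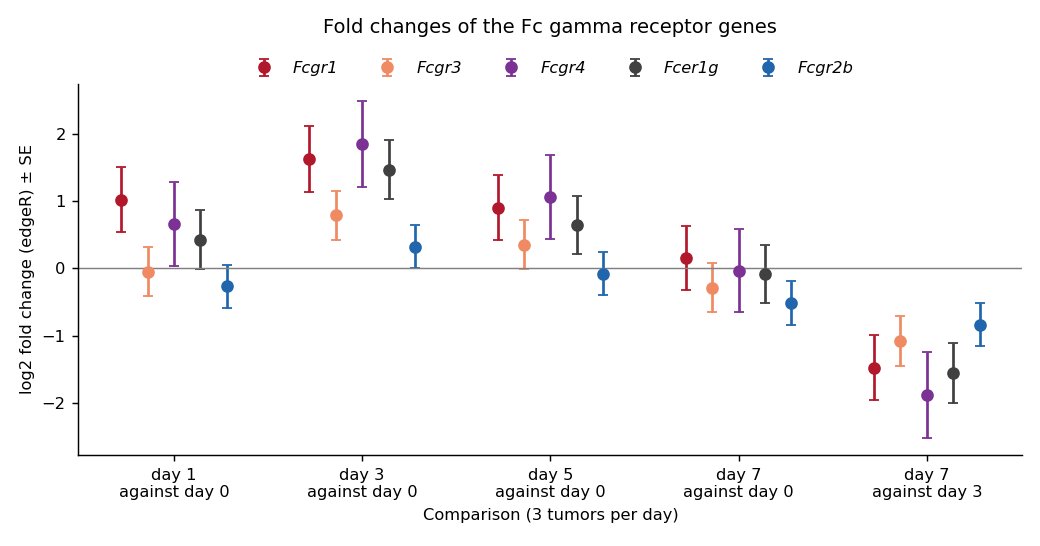
log2 fold change ± SE by edgeR (y axis) of each receptor gene in 5 comparisons of harvest days (x axis, 3 tumors per day). Fcgr4, Fcgr1 and Fcer1g are the highest on day 3 and Fcgr2b the lowest in each comparison with day 0.

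The ratio of each activating gene to Fcgr2b was then taken within each tumor, which removes library size and scaling. The ratio of Fcgr4 to Fcgr2b counts was 0.106, 0.294 and 0.191 in the untreated tumors, 0.192, 0.286 and 0.531 on day 1, 0.549, 0.507 and 0.558 on day 3, 0.338, 0.598 and 0.324 at day 5 and 0.205, 0.371 and 0.120 on day 7. The day 3 ratios lay close together, above all untreated and all day 7 ratios, and day 3 replicate 1 did not stand apart in them. The ratio of Fcer1g to Fcgr2b was 0.207, 0.401 and 0.331 in the untreated tumors and 0.675, 0.735 and 0.594 on day 3. It was 0.428, 0.659 and 0.438 on day 5, still above every untreated tumor, and 0.425, 0.418 and 0.361 on day 7, where it overlapped them.

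The ratio of Fcgr1 to Fcgr2b was 0.107, 0.224 and 0.190 in the untreated tumors, 0.256, 0.246 and 0.650 on day 1, 0.322, 0.571 and 0.435 on day 3 and 0.208 to 0.304 on day 7. It was the sole ratio with all 3 day 1 tumors above the untreated ones. The ratio of Fcgr3 to Fcgr2b moved over a narrower range, from 0.393 ± 0.0448 in untreated tumors to 0.537 ± 0.0211 on day 3 and 0.450 ± 0.0202 on day 7 (SD, n = 3). Because Fcgr2b and Fcgr3 share sequence, this ratio is the most exposed to how reads were divided.

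Between day 0 and day 3 the geometric mean ratio to Fcgr2b was 2.96-fold higher for Fcgr4, a log2 difference of 1.57 ± 0.43 (SE), 2.60-fold higher for Fcgr1 (1.38 ± 0.40), 2.20-fold higher for Fcer1g (1.14 ± 0.30) and 1.37-fold higher for Fcgr3 (0.46 ± 0.10). All 4 ratios were higher in 3 of 3 day 3 tumors than in any untreated tumor, with an exact permutation p of 0.1 each (two-sided), the smallest that 3 tumors against 3 allow. The 4 ratios share Fcgr2b, so they are not independent, and ratios of other genes to Fcgr2b were not taken. Over the 5 days, the harvest day held 57.5% of the variance of the log2 ratio for Fcgr3, 57.1% for Fcer1g, 55.8% for Fcgr4 and 52.7% for Fcgr1. None of the 4 passed the exact permutation test over all 1401400 divisions of the tumors (p = 0.0597, 0.0539, 0.0729 and 0.078, and 0.078 for each after adjustment over the 4 ratios). Without day 1 replicate 3, the adjusted exact permutation p was 0.033 for Fcgr1 and 0.0202 for both Fcgr3 and Fcer1g. Of the 15 omissions of 1 tumor, no other brought an adjusted p under 0.05. Without day 0 replicate 1 the adjusted exact permutation p was 0.234 for Fcgr1 and 0.182 for Fcgr3, Fcgr4 and Fcer1g.

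With the 3 activating receptors summed per kilobase of transcript, the ratio to Fcgr2b was 1.34, 2.25 and 1.89 in the untreated tumors, 1.82, 2.29 and 3.79 on day 1, 3.39, 3.58 and 3.64 on day 3, 2.63, 3.94 and 2.51 at day 5 and 2.05, 2.70 and 1.80 on day 7. The day 3 and day 5 tumors lay above all untreated tumors, and the geometric mean was 1.98-fold higher on day 3 than on day 0. This sum was given no test, and its level depends on the transcript lengths used.

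**Figure D3:**
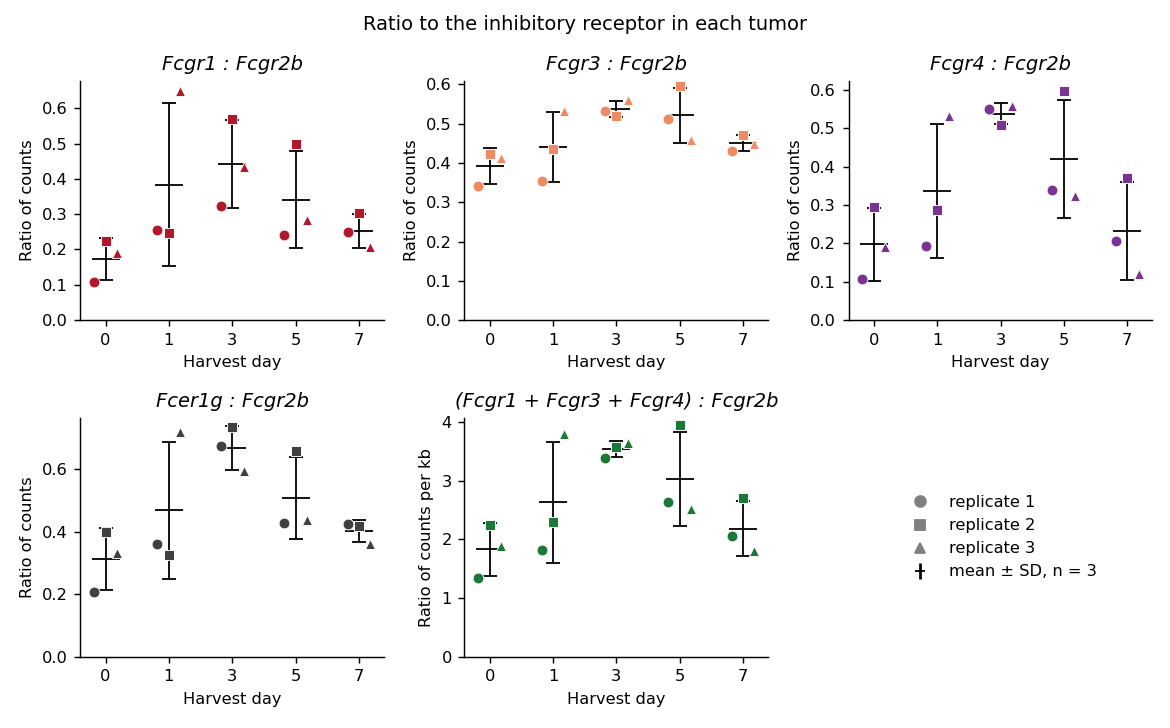
Ratio of Fcgr1, Fcgr3, Fcgr4 and Fcer1g counts to Fcgr2b counts, and of the 3 activating receptors summed per kilobase to Fcgr2b (y axes, linear from 0), against harvest day, with 1 symbol per tumor and the mean ± SD of 3 tumors. Every day 3 tumor lies above every untreated tumor in all 5 panels, with the day 3 values of Fcgr4 between 0.507 and 0.558.

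Per kilobase of the longest transcript, the 4 receptors can be set against each other. In untreated tumors Fcgr3 held 36.8% ± 2.18 and Fcgr2b 36.0% ± 6.08 of the receptor counts per kilobase, against 19.0% ± 6.39 for Fcgr4 and 8.22% ± 1.75 for Fcgr1 (SD, n = 3). On day 3 Fcgr4 held the largest mean share, 33.5% ± 2.06, followed by Fcgr3 with 31.2% ± 1.14, Fcgr2b with 22.1% ± 0.656 and Fcgr1 with 13.3% ± 3.54. The share of Fcgr2b was 42.7%, 30.8% and 34.6% in the untreated tumors and 22.8%, 21.8% and 21.5% on day 3. By day 7 the mean shares were 37.6% for Fcgr3, 31.8% for Fcgr2b, 19.8% for Fcgr4 and 10.9% for Fcgr1, in the same order as in untreated tumors. Transcript lengths are those of the annotation and not of the isoforms used in these tumors. For Fcgr2b the longest transcript has 3544 bases, while its 7 transcripts have a mean of 1597.4 bases. With mean lengths Fcgr2b would hold a larger share, so the order of the receptors within a day depends on the length chosen.

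**Figure D4:**
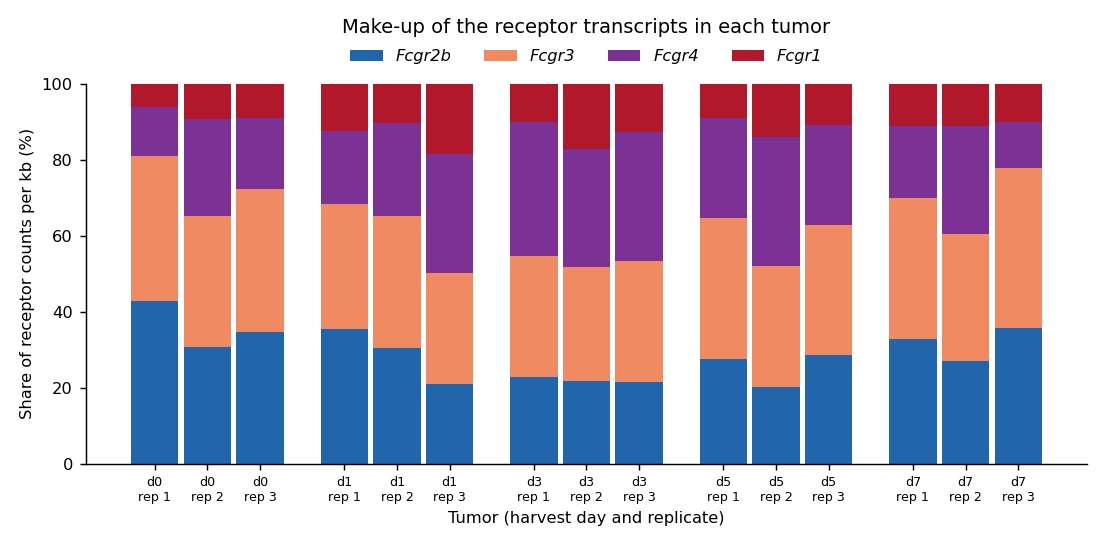
Share of each of the 4 receptors in their summed counts per kilobase (y axis, percent, stacked to 100) in each tumor (x axis, by harvest day and replicate). The Fcgr2b share is 21.5% to 22.8% in the day 3 tumors and 30.8% to 42.7% in the untreated tumors.

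The summed macrophage markers were highest on day 3, as were the mean levels of all 5 receptor genes. For Fcgr2b this rested on replicate 1, with 612 CPM against 299 and 318 CPM in the other day 3 tumors. In whole tumors, more cells of a type and more RNA per cell cannot be told apart. The summed level of 10 macrophage markers, none at 0 in any tumor, was 2509 to 3046 CPM in untreated tumors, 1961 to 4212 CPM at day 1, 4675 to 11532 CPM on day 3, 3032 to 5819 CPM at day 5 and 1905 to 3945 CPM on day 7. The highest day 3 sum was that of replicate 1, and the other tumors of that day had 4675 and 4854 CPM. On day 3, 9 of the 10 had a positive log2 fold change against day 0 (median 1.52, against -0.025 over all genes), from 1.26 for Csf1r to 2.06 for Aif1, and Mrc1 had -0.39. Without day 3 replicate 1 the median was 1.00, with 0.49 for Csf1r and -0.90 for Mrc1. None was called by edgeR (0% of all genes), 9 were higher at an unadjusted p under 0.05 (18.3% of all genes) and DESeq2 called 9 higher (9.43%). Without that tumor 7 were higher at an unadjusted p under 0.05, beside 6.53% of all genes. Summed markers of neutrophils, NK cells and B cells were also higher on day 3 than on day 0. For 7 neutrophil markers the sums were 73.7 to 196 CPM against 29.4 to 41.4 CPM. They were 150 to 281 against 59.0 to 93.0 CPM for 7 NK cell markers. For 8 B cell markers they were 19.8 to 98.1 against 9.61 to 11.8 CPM. Replicate 1 had the highest of the day 3 sums in each, and the next highest was 91.8, 246 and 23.9 CPM. On day 3 Csf3r averaged 99 of the 121 CPM for neutrophils, and Cd22 29.7 of the 47.3 CPM for B cells. At an unadjusted edgeR p under 0.05, 1 of 6 neutrophil, 5 of 6 NK cell and 5 of 7 B cell markers tested were higher. Without day 3 replicate 1 these counts were 0, 2 and 2. The sum of 6 monocyte markers overlapped, with 575 to 868 CPM on day 3 and 561 to 612 CPM on day 0. Vcan made up 366 of a mean 579 CPM on day 0 and 206 of a mean 718 CPM on day 3. Of these 6 markers, 5 had a positive log2 fold change on day 3 (median 1.53, and 1.36 without day 3 replicate 1), from Ly6c2 at 2.34 ± 0.63 to Vcan at -0.83 ± 0.22 (SE). None of the 6 was called by edgeR, 4 were higher and 1 lower at an unadjusted p under 0.05, and DESeq2 called 3 higher and Vcan lower. The sum of 7 mast cell and basophil markers overlapped, with 253 to 650 CPM on day 3 and 162 to 260 CPM on day 0. For 6 dendritic cell markers the sums were 78.8 to 242 CPM against 38.4 to 62.6 CPM. At an unadjusted edgeR p under 0.05, 1 of these 7 and 2 of these 6 markers were higher on day 3, and 0 of each without day 3 replicate 1. The part of any of these cells in the receptor levels was not tested.

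Relative to the mean log2 CPM of the macrophage markers, Fcgr2b was lower on day 3, while Fcer1g lay close to the markers' own difference. The log2 level of Fcgr2b relative to the markers was 1.02 ± 0.40 on day 0, 0.64 ± 0.30 on day 1, 0.0028 ± 0.17 on day 3, 0.29 ± 0.36 at day 5 and 0.45 ± 0.084 on day 7 (SD, n = 3). Tumors of days 3, 5 and 7 all lay below the untreated tumors, and the day 7 tumors lay above the day 3 tumors. The difference of day 3 from day 0 was -1.02 ± 0.25 (SE), a ratio of 0.494. Over the 5 days, the harvest day held 68.1% of the variance of this measure (exact permutation p = 0.00863, adjusted p = 0.0431 over the 5 receptor genes). That call was narrow. With 1 tumor left out at a time, the unadjusted exact permutation p was 0.00391 to 0.038, and the adjusted p was under 0.05 in 5 of 15 cases and reached 0.19 without day 0 replicate 1 and 0.154 without day 3 replicate 1. With Csf1r alone in place of the list the adjusted p was 0.059, and with Adgre1 alone 0.0472, both by the exact permutation test.

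Fcgr3 was also lower relative to the markers on day 3, by a log2 difference of -0.56 ± 0.17 (SE), and Fcgr4 higher, by 0.55 ± 0.22, both with no overlap between day 3 and day 0 tumors and an exact permutation p of 0.1. The share of all genes without overlap relative to the markers was not taken. Fcgr1 differed by 0.36 ± 0.35 and Fcer1g by 0.12 ± 0.15 (SE), with overlapping tumors. The direction of the last 2 and of Fcgr4 depended on the marker chosen: with Adgre1 alone the differences were -0.19 for Fcgr1, -0.0051 for Fcgr4 and -0.43 for Fcer1g, and with Csf1r alone 0.59, 0.78 and 0.35. For Fcgr2b the difference was -0.79 with Csf1r and -1.57 with Adgre1. On day 1, Fcgr1 lay above the untreated tumors relative to the markers in 3 of 3 tumors, by 0.67 ± 0.30 on the log2 scale (SE), and by 0.39 without replicate 3 of that day, which was the highest. Over the 5 days, the adjusted exact permutation p was 0.118 for Fcgr3, 0.217 for Fcgr4, 0.276 for Fcgr1 and 0.277 for Fcer1g.

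**Figure D5:**
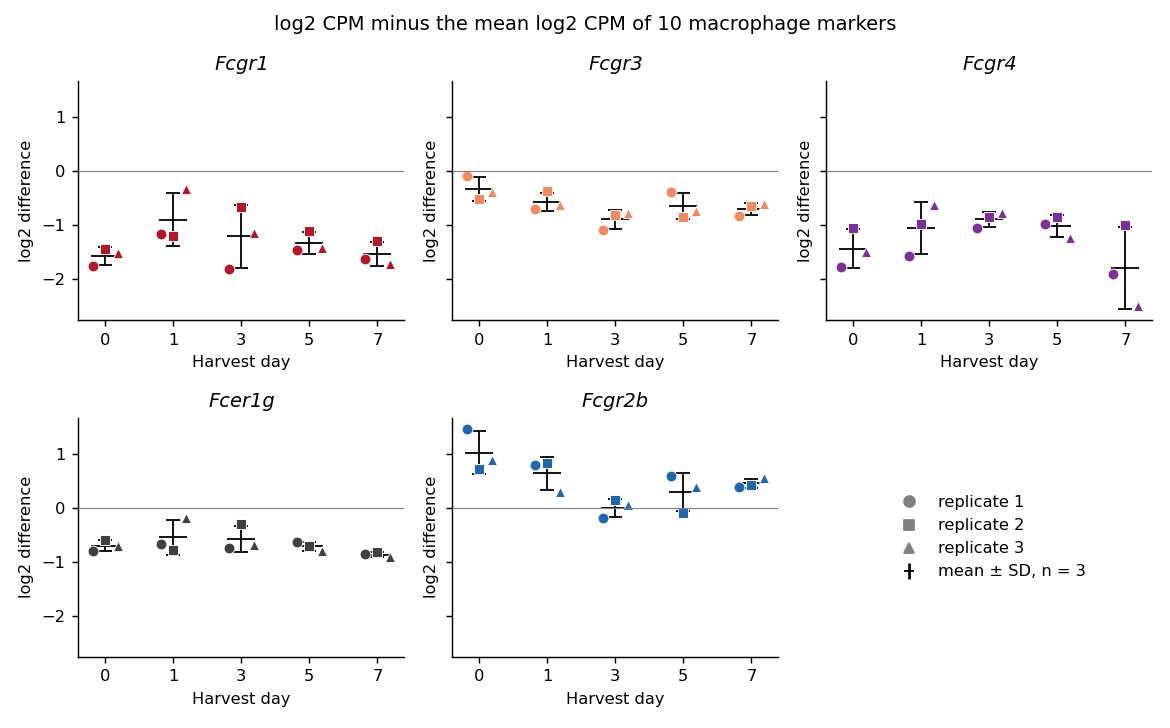
log2 CPM of each receptor gene minus the mean log2 CPM of 10 macrophage markers (y axis) against harvest day, with 1 symbol per tumor and the mean ± SD of 3 tumors. Fcgr2b lies between 0.71 and 1.47 in the untreated tumors and between -0.18 and 0.13 on day 3.

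Downstream of the receptors, most genes of ITAM signalling had higher mean levels on day 3 than on day 0, without a call by edgeR. Of 10 kinases, 9 had a positive log2 fold change (median 1.21), from Syk, the kinase that docks on the gamma chain, at 1.80 ± 0.56 to Src at -0.36 ± 0.15 (SE). Without day 3 replicate 1 these were 1.09 and -0.18. None was called by edgeR, 9 were higher and 1 lower at an unadjusted p under 0.05, and DESeq2 called 6 higher. For this and the lists that follow, the shares over all genes were 18.3% higher at an unadjusted p under 0.05, 6.53% without day 3 replicate 1, and 9.43% called higher by DESeq2. Of 17 adaptors and effectors, 16 were positive (median 1.15), with Rac2, a GTPase of the phagocyte oxidase, highest at 2.07 ± 0.60 and Cbl lowest at -0.26 ± 0.17 (SE), and DESeq2 called 12 higher and edgeR none (15 higher at an unadjusted p under 0.05). Without day 3 replicate 1 the medians were 0.79 and 0.62, and Rac2 had 1.40. Without it, 3 kinases and 8 adaptors and effectors were higher at an unadjusted p under 0.05.

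The inhibitory partners that act with or beside Fcgr2b had positive log2 fold changes in 9 of 10 cases on day 3, with a median of 0.96. Inpp5d, the phosphatase recruited by the Fcgr2b ITIM, had 1.35 ± 0.40, Ptpn6 had 1.42 ± 0.44 and Cd300a, the highest, 1.99 ± 0.66, while Ptpn11, the lowest, had -0.13 ± 0.12 (SE). DESeq2 called 5 of the 10 higher and edgeR none (9 at an unadjusted p under 0.05), while without day 3 replicate 1 the median was 0.79, Cd300a had 1.12, Ptpn11 had -0.022 and 3 were higher at an unadjusted p under 0.05. Of 12 reported regulators of these receptor genes, 11 were positive (median 0.87), from Il10 at 2.44 ± 0.82 to Cebpb at -0.093 ± 0.23 (SE), with 5 called by DESeq2 and none by edgeR (8 at an unadjusted p under 0.05). Without that tumor their median was 0.71, Cebpb had 0.11 and 1 was higher at an unadjusted p under 0.05.

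Among 13 other Fc receptor genes, 10 were tested and 8 were positive on day 3. Their median was 1.32 on the log2 scale, and 0.52 without day 3 replicate 1. The B cell gene Fcrl1 had 3.16 ± 1.01, at a mean of only 0.111 CPM on day 0 and 1.03 CPM on day 3, and Fcrls had -0.98 ± 0.75 (SE). Fcgrt, which encodes the neonatal Fc receptor, had 1.57 ± 0.54 (SE) but 0.31 without day 3 replicate 1, whereas Trim21, the cytosolic antibody receptor, had 0.80 ± 0.21 (SE) and 0.73 without it. DESeq2 called 4 of the 10 higher and edgeR none (5 at an unadjusted p under 0.05, and 2 without that tumor). Fcmr, Fcamr and Pigr were below the filter on low values. Of 10 other partners of the gamma chain, 8 were in the table and 7 tested, all positive (median 1.17, and 1.04 without that tumor), from Ncr1, an NK cell receptor, at 2.50 ± 0.80 to the platelet collagen receptor gene Gp6 at 0.26 ± 0.46 (SE), with 2 called by DESeq2 and none by edgeR (3 at an unadjusted p under 0.05). Without that tumor Gp6 had 0.52, and 1 of the 7 was higher at an unadjusted p under 0.05.

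Of 9 immunoglobulin genes, 6 were tested and all 6 were positive on day 3. Their median log2 fold change was 3.81, and 1.84 without day 3 replicate 1. Of the 6, Ighg1 and Ighg2b alone encode heavy chains of IgG, the ligand of these receptors. Ighg2c and Ighg3 were below the filter on low values, and Ighg2a was absent from the counts. Levels were low and uneven: Ighg1 averaged 0.258 ± 0.224 CPM on day 0 and 6.31 ± 10.2 CPM on day 3 (SD, n = 3), with a log2 fold change of 4.61 ± 2.18 (SE) and 0.82 without that tumor. The lowest of the 6 was Ighm, at 2.72 ± 0.91 (SE) and 1.38 without that tumor. DESeq2 called 2 of the 6 higher and edgeR none (4 at an unadjusted p under 0.05, and 0 without that tumor).

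Across the 15 tumors, Fcer1g correlated most closely with Fcgr4 (Pearson r = 0.957) and Fcgr1 (r = 0.95), and Fcgr2b with Fcgr3 (r = 0.918), the pair that shares sequence. Fcgr2b and Fcgr1 were least alike (r = 0.586, and 0.467 without day 3 replicate 1). These correlations of log2 CPM describe 15 tumors that share harvest days and library scaling. Among all other tested genes, the 5 whose levels were most like Fcer1g were Pirb (r = 0.991), Lrrc25, Igsf6, Rnf130 and Spi1 (r = 0.99 each), Spi1 encoding the myeloid factor PU.1. For Fcgr4 they were Sectm1a (r = 0.992), FAM26F (r = 0.988), Fgl2 (r = 0.986), Cybb (r = 0.978) and Klrk1 (r = 0.976), and for Fcgr1 they were Gm14085 (r = 0.978), Cd180 (r = 0.976), Ms4a4c (r = 0.974), Cfb (r = 0.973) and Treml2 (r = 0.972). For Fcgr3 they were Rftn1 (r = 0.985), Entpd1 (r = 0.976), Tec (r = 0.976), Irf4 (r = 0.975) and Zkscan4 (r = 0.974). Fcgr2b had looser neighbours, namely Fam169b (r = 0.954), Trf (r = 0.949), Zfp36l1 (r = 0.948), Ogdhl (r = 0.939) and Ttc30a1 (r = 0.93).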

How the data were processed

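Poly(A) RNA of each tumor was sequenced as 100-base single-end reads. The authors checked reads with FastQC 0.11.3, quantified transcripts with kallisto 0.43.0, summed them to genes with tximport on mm10 (GRCm38) and deposited the estimated counts of each gene, already whole, 1 column per tumor without pooling. The transcript set was not given in the sources used here. Reads that fit more than 1 transcript are shared out by kallisto, which makes counts of similar genes uncertain, and the strand setting was not given. The table held 32544 entries, 9156 of them without a count. A name that a spreadsheet had turned into a date, with at most 0.0268% of a tumor's counts, was left out.

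Groups were the harvest days in the labels. Nothing in the labels ties the 3 tumors of a day to litters or batches, and p-values measure the spread between these tumors. No same-day pair was alike within counting noise (chi-square per degree of freedom 9.56 to 284). Genes with CPM above 0.366 in at least 3 tumors were tested with edgeR 4.0.16 (R 4.3.3), with scaling by TMM, 1 quasi-likelihood fit to the 15 tumors with day as the sole term, and Benjamini-Hochberg adjustment over 15494 genes at 0.05. DESeq2 1.42.0, other scaling, no filter, the compared days alone and leaving out each tumor were alternatives. The script was tested on simulated counts. Ratios used counts with 0.5 added. Log2 CPM used a prior count of 2. Exact permutation tests were two-sided. Lengths and coordinates came from GENCODE M21, counted from 1.

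The receptor genes and lists were chosen with earlier results of these data known. All 5 receptor genes were named, as were the highest and lowest gene of each list on day 3, genes of the inhibitory and Fc receptor lists, and the 5 genes most correlated with each receptor gene. Csf1r and Adgre1 were single-marker alternatives to the macrophage list. Leave-one-out and single-marker versions of the tests over 5 days, and leaving out tumors from the day 1 level of Fcgr1 relative to macrophage markers, were added after seeing the data. The authors' other assays were not analysed here.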

Additional observations from a re-analysis of the deposited data

How the results depend on the processing

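No receptor gene was called in any comparison by edgeR with another scaling, no filter or the compared days alone. DESeq2 called 3 on day 3 against day 0, 4 on day 7 against day 3 and 2 in the joint test. With 1 tumor left out, 0 to 1 was called on day 7 against day 3 and 0 in the other comparisons. The 1 call, without day 3 replicate 3, came beside 2091 of all 15494 genes. Replicate numbers did not pair the tumors: of 30 same-numbered pairs, 9 had deviations correlated over 0.1 (median -0.0959), and with the replicate block 0 receptor genes were called. With 1 tumor left out, fold changes near 0 crossed it. Against day 0, log2 values ranged from -0.34 to 0.20 (Fcgr3, day 1), -0.21 to 0.69 (Fcer1g, day 1), -0.086 to 0.51 (Fcgr2b, day 3), -0.36 to 0.086 (Fcgr2b, day 5), -0.34 to 0.45 (Fcgr1, day 7), -0.95 to 0.39 (Fcgr4, day 7) and -0.41 to 0.18 (Fcer1g, day 7), and the log2 ratio of Fcgr4 to Fcgr2b on day 7 from -0.21 to 0.60. Relative to macrophage markers, Fcer1g on day 3 ranged from -0.016 to 0.20, and with Adgre1 alone Fcgr1, Fcgr4 and Fcer1g turned to -0.19, -0.0051 and -0.43. For Fcgr2b relative to the markers, the variance between days was 63.3% to 74.8% with 1 tumor left out and 61.2% with Csf1r alone (adjusted p = 0.059, exact permutation test). The causes were not tested. On day 3, the 4 ratios to Fcgr2b were higher under every alternative run, with log2 differences of 1.06 to 1.60 for Fcgr1, 0.36 to 0.52 for Fcgr3, 1.18 to 1.92 for Fcgr4 and 0.87 to 1.35 for Fcer1g when 1 tumor was left out. With 3 tumors a day, an exact p under 0.1 was out of reach between any 2 days.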
